A study of Rattus norvegicus with 42 samples.

Results

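Liver was exchanged for brain at a constant 25% of lung by setting 3 arrays of a mixture of 70% liver, 5% brain and 25% lung against 3 arrays of a mixture of 55% liver, 20% brain and 25% lung. The 6 arrays were chosen by their tissue labels out of 42 in the series, and all 31042 rat probe sets that are not manufacturer's controls were compared. A probe set is a group of short oligonucleotides that together report on a transcript. The mixtures are called the 5% and the 20% brain mixture here, and every difference is the 20% minus the 5% brain mixture, in log2 units unless a fold is given. The tissues came from 1 untreated rat, the labels give an age range of 9 to 12 weeks for the animals, and no group carries an engineered allele or an agent. Labelled RNA (cRNA) of the tissues, and not the tissues themselves, was combined. The 3 arrays of a mixture are technical replicates, so the p-values measure the spread between arrays and say nothing about other animals. The study's title gives its purpose as testing the feasibility and sensitivity of statistical deconvolution, the recovery of a sample's makeup from its expression values. The other groups used are pure liver, pure brain and pure lung, and a second exchange of liver for brain at 5% lung, made of 70% liver, 25% brain and 5% lung against 60% liver, 35% brain and 5% lung, each with 3 arrays.

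In an RNA mixture no cell responds to anything: a transcript's amount is set by its amount in each tissue and by each tissue's share. Brain RNA is rich in transcripts of synapses, myelin and glia, liver RNA in those of secreted plasma proteins and metabolic enzymes, and lung RNA in those of surfactant, airway, vessel and matrix. A transcript made in brain alone follows the brain share, one made in liver alone follows the liver share, and a transcript present at similar levels in every tissue is not moved by an exchange. By the labels the brain share rose 4-fold (a log2 ratio of 2), the liver share fell to 0.786 of its value (-0.35), and the lung share did not change.

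The array medians were 5.67, 5.67 and 5.68 in the 5% brain mixture and 5.78, 5.77 and 5.77 in the 20% brain mixture. The median SD between replicate arrays was 0.09 and 0.08. The bacterial dap controls read 2.35 to 2.78. The hybridisation control bioB, a bacterial transcript, read 8.08 ± 0.08 (SD, n = 3) in the 5% and 7.76 ± 0.15 in the 20% brain mixture, and the brighter bioC, bioD and cre differed by -0.24, -0.09 and 0.02. On single arrays bioB read 8.17, 8.02 and 8.06, then 7.65, 7.93 and 7.69. The arrays of the mixtures did not overlap for bioB and bioC, but did for bioD and cre. The part of these controls in the results below was not tested beyond a rescaling of the arrays by a curve through them. That rescaling moved the median difference of all probe sets from -0.08 to 0.24, so directions of small differences depend on it, whereas the brain-enriched median stood 0.95 above the lung-enriched median as deposited and 0.98 above it after the rescaling. The number of arrays limits the precision.

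Of the 31042 probe sets, 12558 differed between the mixtures (40.5%; limma, Benjamini-Hochberg adjusted p under 0.05). The 20% brain mixture was higher for 5374 of them (17.3%) and lower for 7184 (23.1%). The increases were the larger ones: of 2701 called differences of at least 1.5-fold, 2392 were increases and 309 were decreases. With arrays rescaled by the hybridisation controls, 3718 probe sets were called higher and 0 lower, with 8 lower at an unadjusted p under 0.05. That rescaling also widened the errors of single genes. Myb, called at 0.30 as deposited, came to 0.63 there without passing (limma adjusted p = 0.0724). An absence of calls after the rescaling thus does not show an absence of differences. With arrays centred on their medians, 4293 were higher and 13098 lower, so that 24.7% of the calls were increases in place of 42.8%.

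Probe sets were assigned to a tissue from the 9 pure arrays alone, as enriched when at least 2-fold higher in it than in both other tissues at an adjusted p under 0.05. Of 3571 brain-enriched probe sets 3217 rose (90.1%) and 0 fell, with a median difference of 0.78. Of 2259 liver-enriched probe sets 1980 fell (87.6%) and 0 rose, with a median of -0.39. Of 2777 lung-enriched probe sets 933 fell (33.6%) and 12 rose (0.432%), with a median of -0.17 as deposited that turned to 0.12 after the rescaling by hybridisation controls. The median level of the brain-enriched class was 5.62, 5.63 and 5.60 on the arrays of the 5% brain mixture and 6.55, 6.54 and 6.54 on those of the 20% brain mixture. The liver-enriched class had median levels of 7.98, 7.97 and 7.96, then 7.56, 7.55 and 7.52. The lung-enriched class had 6.65, 6.68 and 6.64, then 6.49, 6.47 and 6.44. In each of the 3 classes the groups of arrays did not overlap, and the exact permutation test of the class medians gave p = 0.1 (two-sided), the smallest that 3 against 3 arrays can give.

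**Figure D1:**
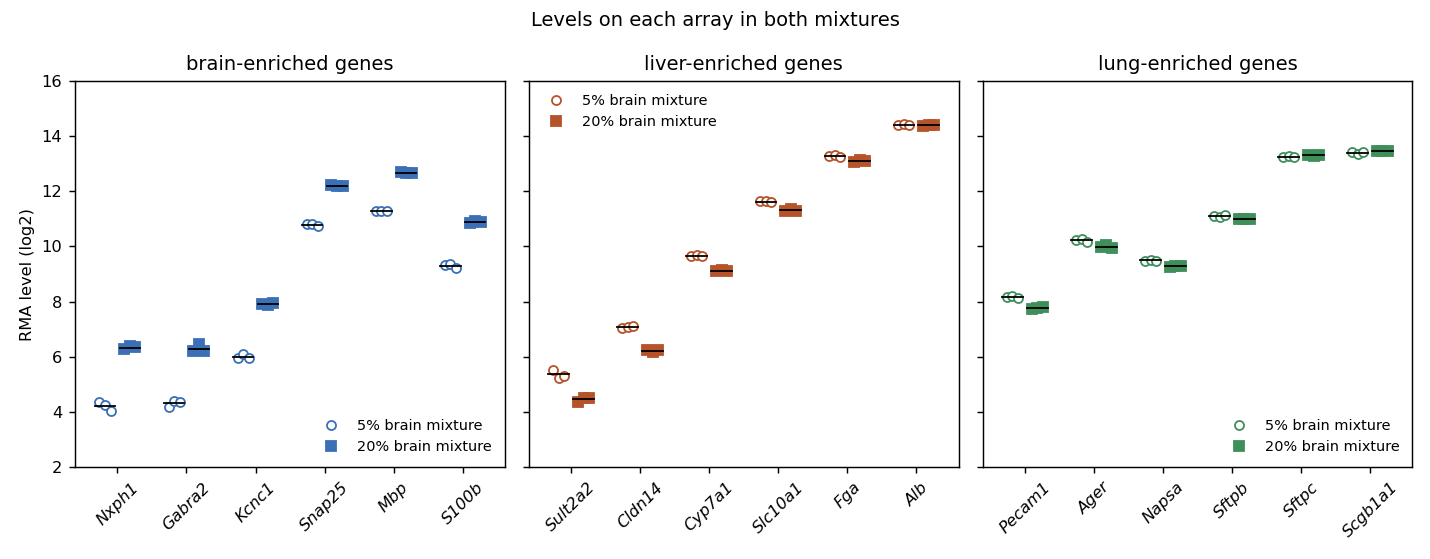
RMA level (log2, vertical axis) of 18 genes on each of the 6 arrays: open circles are the 5% brain mixture, filled squares the 20% brain mixture, and black bars the means of 3 arrays. Brain-enriched genes such as Nxph1 and Mbp stand clearly higher in the 20% brain mixture, liver-enriched genes such as Sult2a2 lower while Alb differs by -0.02, and of the lung-enriched genes Pecam1 is lower by 0.40 and Sftpc differs by 0.05 as deposited.

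The 10 largest increases were all in brain-enriched genes, and Nxph1 led them. Nxph1, which encodes neurexophilin 1, a secreted ligand of the presynaptic neurexins, was at 4.34, 4.26 and 4.05 in the 5% brain mixture and at 6.27, 6.37 and 6.36 in the 20% brain mixture. That is a 4.34-fold increase (2.12 ± 0.11, SE; limma adjusted p = 2.17e-17), with no overlap of the groups. Pax6, a transcription factor of the developing forebrain and of cerebellar granule neurons, rose by 1.99 ± 0.10 (3.99-fold). Gabra2, a GABA-A receptor subunit, was at 4.17, 4.40 and 4.36 and then at 6.23, 6.46 and 6.21, a 3.97-fold increase. Kcnc1, a voltage-gated potassium channel of fast-spiking neurons, rose 3.78-fold. Slitrk1, a synaptic adhesion protein, rose 3.75-fold and Lgi1, a secreted epilepsy-linked synaptic protein, 3.67-fold. Plcxd3, Tmem229a, Pnma8b and Unc13c completed the 10 largest, at 3.70-fold, 3.69-fold, 3.63-fold and 3.61-fold. For Tmem229a 1 other probe set of the gene was called in the opposite direction. The 10 genes were ranked by these same differences.

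Named gene lists were read against the 14217 genes with 1 probe set each, of which 19.1% rose and 28.8% fell, with a median of -0.08. All 25 measured genes of neurons and synapses rose, with a median of 1.52 and a range of 0.64 to 1.70. Snap25, a SNARE protein of vesicle fusion, was at 10.81, 10.82 and 10.75 and then at 12.21, 12.19 and 12.19. It rose 2.65-fold (1.41 ± 0.06, adjusted p = 3.52e-19). Cplx1, a complexin that clamps vesicle fusion, rose 2.94-fold and Map2, a dendritic microtubule protein, 2.99-fold. The smallest increase in this list was that of Dlg4, the postsynaptic scaffold PSD-95, whose arrays spread widely in the 5% brain mixture: 5.17, 5.51 and 5.96, then 6.12, 6.16 and 6.29.

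All 15 measured genes of glutamate and GABA signalling rose, with a median of 1.51. Gad1, which makes GABA from glutamate, was at 8.05, 8.07 and 7.86 and then at 9.65, 9.63 and 9.65 (3.13-fold). Gria2, an AMPA-type glutamate receptor subunit, rose 2.95-fold. Gabra6, a GABA-A receptor subunit of cerebellar granule cells, rose 3.28-fold (1.71 ± 0.06, adjusted p = 3.57e-21). Grin2b, an NMDA receptor subunit, gave the lowest difference of the list, 0.51, with arrays at 5.21, 4.48 and 4.98 and then at 5.54, 5.39 and 5.26.

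Of 13 measured genes of myelin and oligodendrocytes 12 rose, with a median of 1.47. Mbp, myelin basic protein, was at 11.28, 11.30 and 11.28 and then at 12.69, 12.67 and 12.67, a 2.62-fold increase (1.39 ± 0.06, adjusted p = 7.29e-20). Mobp, another myelin protein, rose 3.18-fold and Cldn11, the tight-junction protein of the myelin sheath, 2.62-fold. Olig2, a transcription factor of the oligodendrocyte lineage, did not pass the test (-0.02, adjusted p = 0.909), with levels of 3.43 to 3.75, whereas its relative Olig1 went from between 6.0 and 6.15 to 7.87, 7.85 and 7.78.

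Of 11 astrocyte genes 8 rose, with a median of 1.06. S100b, a calcium-binding protein of astrocytes, was at 9.34, 9.38 and 9.21 and then at 10.85, 10.93 and 10.90 (3.01-fold). Aldoc, the brain form of aldolase, rose 2.96-fold. Gja1, the gap junction protein connexin 43, which the pure arrays put at 12.2 in brain but also at 10.5 in lung, rose by 0.76 ± 0.045 (1.70-fold). The astrocyte genes that did not pass were Fgfr3, Slc1a2 and Slc6a11, the last at 3.03 to 3.41, close to the dap controls.

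Of 16 genes of neuropeptides and granins, the packaged peptides and proteins of dense-core vesicles, 15 rose, with a median of 1.37. Scg5, a chaperone of prohormone processing, rose 3.03-fold, the granin Scg3 3.14-fold and the peptide gene Cck 2.75-fold. Cck was at 7.77, 7.98 and 7.83 and then at 9.40, 9.30 and 9.26. Oxt, which encodes oxytocin, did not pass (adjusted p = 0.126), with overlapping arrays at 5.09, 5.67 and 5.23 and then at 5.66, 5.64 and 5.57.

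Of 13 cerebellar and calcium-binding genes 11 rose, with a median of 1.47. Neurod1, a transcription factor of granule neurons, rose 3.42-fold, Pcp4, a calmodulin-binding peptide of Purkinje cells, 2.98-fold, and Itpr1, the inositol trisphosphate receptor of the same cells, 1.98-fold. Itpr1 is also present in pure liver and lung, at 7.5 and 9.0 against 11 in brain. Zic2, a zinc finger transcription factor, was called lower (-0.28 ± 0.10, adjusted p = 0.0247), and this reversed to 0.047 under the rescaling by hybridisation controls and lost its call in 5 of the 6 fits that left out an array. The pure arrays gave Zic2 levels of 6.2 (liver), 6.0 (brain) and 5.7 (lung), so its probe set hardly separates the tissues.

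The lists of 2 other brain cell types did not follow the brain share. Of 7 measured choroid plexus genes 1 rose and 2 fell, where 19.1% of all 14217 genes rose and 28.8% fell. Otx2, a homeobox factor of that epithelium, went from 3.50, 2.72 and 3.37 to between 3.95 and 4.24. Ttr, transthyretin, which liver and choroid plexus both secrete, was at 13.31, 13.26 and 13.32 and then at 13.29, 13.25 and 13.30 (adjusted p = 0.809). Its level was 13.3 in pure liver and 13.1 in pure brain, and a difference of -0.04 was predicted from them. Prlr, the prolactin receptor, and Aqp1, a water channel, fell by 0.35 and 0.33, and the pure arrays classed them as liver- and lung-enriched.

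Of 10 microglia genes 1 rose and 4 fell, where 19.1% of all 14217 genes rose and 28.8% fell. The list median of -0.23 turned to 0.09 after the rescaling by hybridisation controls. The gene that rose was P2ry12, a purine receptor that resting microglia carry, at 5.35, 5.51 and 5.38 and then at 6.27, 6.25 and 6.12 (1.75-fold). The complement genes C1qa, C1qb and C1qc, which tissue macrophages of any organ make, fell by 0.39, 0.35 and 0.46, and the macrophage gene Aif1 also fell. C1qc was at 8.5 in pure liver, 6.1 in pure brain and 7.2 in pure lung. Csf1r, the receptor of the macrophage growth factor CSF1, gave -0.13 (adjusted p = 0.112). The mixtures differ by their labelled tissue shares and not in the cells of a tissue. Between the pure tissues, fewer cells of a type and less RNA per cell cannot be told apart in such bulk RNA.

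**Figure D2:**
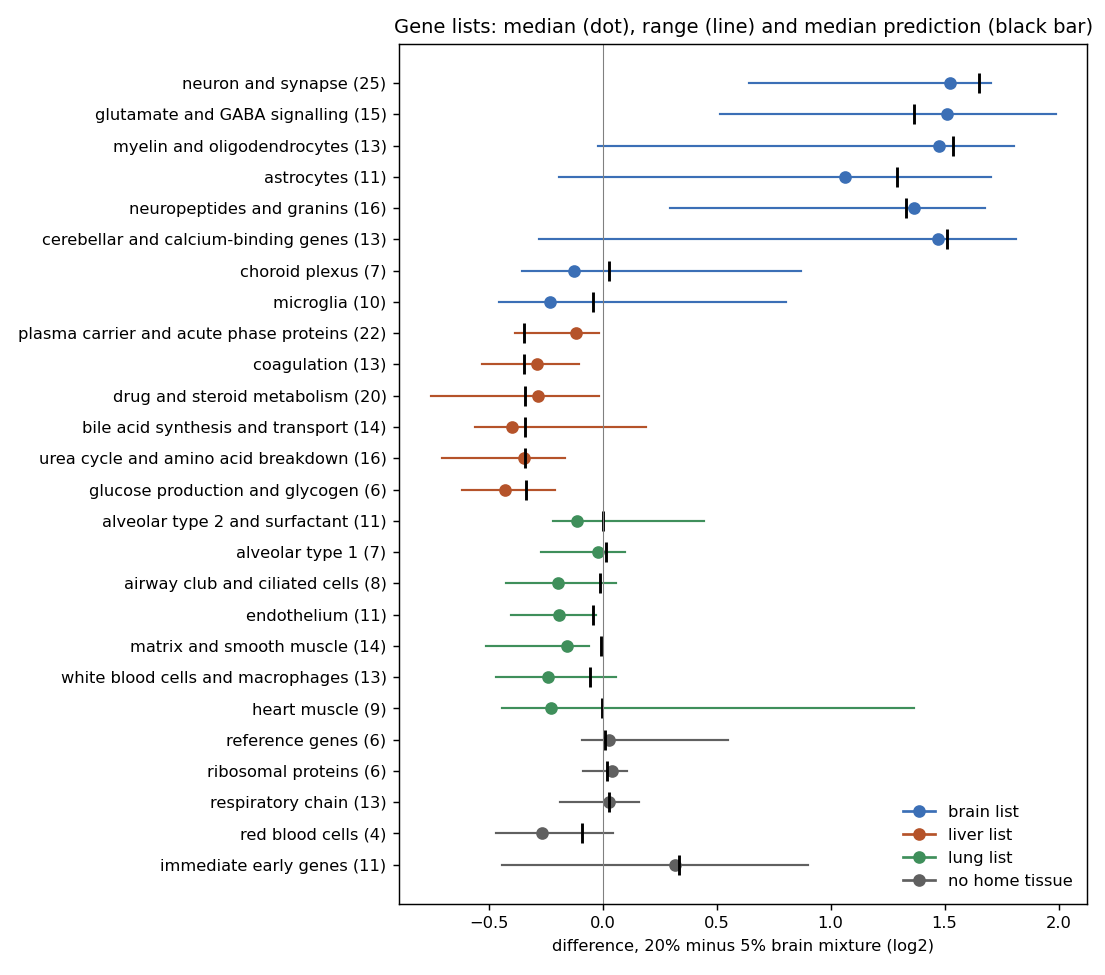
Difference between the mixtures (log2, horizontal axis) for 26 gene lists, with the number of measured genes in brackets: dots are list medians, coloured lines run from the lowest to the highest member, and black bars are the median differences predicted from the pure tissues. Of the brain lists 6 lie between 1.06 and 1.52, while microglia and choroid plexus lie at -0.23 and -0.13 as deposited. These turned to 0.09 and 0.15 after rescaling by hybridisation controls. Liver lists lie between -0.43 and -0.12, and lung lists between -0.24 and -0.02 as deposited, the lung medians turning to between 0.01 and 0.13 after that rescaling.

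Liver genes fell by smaller steps than brain genes rose. By the labelled shares a transcript of liver alone would be 1.27-fold lower, and the largest decreases exceeded that. Sult2a2, a sulfotransferase of steroids and bile acids, was at 5.54, 5.25 and 5.30 in the 5% brain mixture and at 4.34, 4.50 and 4.51 in the 20% brain mixture, a 1.88-fold decrease (-0.91 ± 0.13, adjusted p = 8.64e-07). Cldn14, a claudin of tight junctions, was 1.82-fold lower, and Inhbc, which encodes a liver activin subunit, 1.79-fold. The sulfotransferases Sult1c2 and Sult1c3 were 1.77-fold and 1.66-fold lower. The cytochrome P450 gene Cyp3a18, the protease inhibitor gene A2ml1 and the peroxisomal oxidase gene Acox3 were each 1.69-fold lower, the carboxylesterase gene Ces2c 1.67-fold and the unnamed locus LOC100909739 1.92-fold. All 10 were liver-enriched on the pure arrays and were ranked by these same differences. After the rescaling by hybridisation controls, which widened the errors, none of the 31042 probe sets was called lower. Cldn14 did not pass there at -0.54 (limma adjusted p = 0.164). The median of the liver-enriched class stayed below 0, at -0.14 for the same probe sets.

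Of 22 genes of plasma carriers and acute phase proteins 5 fell and 17 did not pass, where 28.8% of all 14217 genes fell. Their median was -0.12 where -0.34 was predicted. Alb, which encodes albumin, was at 14.40, 14.43 and 14.40 and then at 14.38, 14.40 and 14.40, a difference of -0.02 ± 0.06 (adjusted p = 0.846). That error is pooled over all 14 groups, and the SD of Alb in the mixtures was 0.016 and 0.009. Its probe set is high in pure liver at 14.3 and also in pure brain at 12.2. Gc, the vitamin D-binding protein, differed by -0.05 and Apoc3, an apolipoprotein, by -0.07, neither passing. In the 5% brain mixture, with 70% liver, Alb was at 14.41 against 14.31 in pure liver. Gc was at 13.57 there against 13.60, and Apoc3 at 13.60 against 13.58. These probe sets hardly separated that mixture from pure liver, so not passing does not show that the transcripts kept their amount. The 5 that fell were Apoa1, Serpina6, Itih1, Rbp4 and Mug1, and Serpina6, the carrier of corticosteroids, went from 11.66, 11.57 and 11.60 to 11.25, 11.27 and 11.20.

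Of 13 coagulation genes 12 fell, with a median of -0.29. F5, coagulation factor V, was at 9.16, 9.08 and 9.12 and then at 8.57, 8.64 and 8.55, the largest step of the list. The fibrinogen genes moved less: Fga fell by 0.17 and Fgb by 0.14, and Fgg gave -0.10 without passing (adjusted p = 0.0895). The call of Fgb was lost in all 6 fits that left out an array and that of Fga in 4, and on repeated quantile normalization neither passed, at -0.046 for Fgb (0.535) and -0.14 for Fga (0.0839).

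Of 20 genes of drug and steroid metabolism 16 fell, with a median of -0.28. Cyp2d2 fell by 0.26 ± 0.08, Ephx1, an epoxide hydrolase, went from 10.16, 10.12 and 10.13 to 9.69, 9.72 and 9.71, and Cyp4a1, a fatty acid hydroxylase, from 10.41, 10.42 and 10.39 to 9.91, 9.93 and 9.95. The very bright Cyp2c7 and Cyp2e1 gave -0.02 and -0.06 and did not pass. For Cyp2c7 the SE pooled over all groups was 0.08, and the SD in the mixtures was 0.014 and 0.010. Cyp2c7 was at 13.42 in pure liver and at 13.42 in the 5% brain mixture, and Cyp2e1 at 13.17 and 13.07. Cyp2c11 and Cyp3a2 did not pass either, at levels of 2.80 to 4.04.

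Of 14 genes of bile acid synthesis and transport 13 fell, with a median of -0.40. Cyp7a1, the rate-limiting enzyme of bile acid synthesis, was at 9.67, 9.71 and 9.64 and then at 9.11, 9.15 and 9.11, and the groups did not overlap. Slc10a1, the bile acid uptake transporter of hepatocytes, fell by 0.31, Slc27a5, which activates bile acids, by 0.34, and Baat, which conjugates them, by 0.39. Cyp7b1, at 3.27 to 3.81 on these arrays, gave 0.19 and did not pass.

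Of 16 genes of urea formation and amino acid breakdown 13 fell, with a median of -0.35. Ass1, argininosuccinate synthase, fell by 0.19 ± 0.04, Asl, the next enzyme of the cycle, went from 9.97, 10.00 and 9.96 to 9.53, 9.52 and 9.45, and Arg1, arginase, from 12.32, 12.29 and 12.33 to 11.99, 12.04 and 12.02. Cps1, which opens the cycle, did not pass, with a spread of 12.17, 12.42 and 12.54 in the 20% brain mixture. Hpd and Tdo2, of tyrosine and tryptophan breakdown, gave -0.17 and -0.22 without passing.

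All 6 measured genes of glucose production and glycogen fell, with a median of -0.43. Gys2, the liver glycogen synthase, went from 7.15, 7.20 and 7.07 to 6.68, 6.56 and 6.32, and Pygl, the liver glycogen phosphorylase, from 10.39, 10.44 and 10.40 to 9.94, 9.97 and 9.96. Slc2a2, the glucose transporter of hepatocytes, fell by 0.41, Fbp1 by 0.33 and Pck1, both enzymes of gluconeogenesis, by 0.21. No gene of the 6 liver lists was called higher as deposited. On repeated quantile normalization 1 gene of bile acid synthesis and transport was.

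Lung was at 25% in both mixtures. Of the lung-enriched probe sets, 1689 had a predicted difference within 0.05 of zero, and 485 of these fell and 3 rose, with 1540 below zero and a median of -0.17 as deposited. The brightest lung genes gave differences near zero that did not pass the test. Sftpc, surfactant protein C of alveolar type 2 cells, was at 13.25, 13.27 and 13.26 and then at 13.31, 13.28 and 13.33 (0.05 ± 0.14, adjusted p = 0.817). That error comes from the spread in all 14 groups. The SD of Sftpc was 0.009 and 0.027 in these mixtures, against 0.38 in pure liver and 0.56 in pure brain. The arrays of the mixtures did not overlap, so not passing does not show that Sftpc was unchanged. Scgb1a1, the main secretory protein of airway club cells, gave 0.06, Sftpa1 0.02 and Lyz2, lysozyme of macrophages and type 2 cells, 0.06.

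Of 11 genes of alveolar type 2 cells and surfactant 1 rose and 2 fell, where 19.1% of all 14217 genes rose and 28.8% fell. Those that fell were Napsa, a protease of surfactant protein processing, by 0.22 and Abca3, the lipid transporter of lamellar bodies, by 0.19. Both turned, to 0.010 and 0.077, after the rescaling by hybridisation controls, and without 1 array the call was lost in 6 of 6 fits for Napsa and in 2 for Abca3. Etv5, a transcription factor of type 2 cells, rose by 0.45 ± 0.10, its pure levels being 6.9 in brain and 7.0 in lung against 4.3 in liver, and 1 other probe set of the gene was called in the opposite direction. Of 7 alveolar type 1 genes 1 fell: Ager, the receptor RAGE, was at 10.23, 10.29 and 10.16 and then at 9.99, 10.04 and 9.94, a call lost in 2 of the 6 fits that left out an array and on repeated quantile normalization. Hopx, Cav1 and Pdpn differed by 0.05, -0.02 and 0.01.

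Of 8 airway genes 4 fell, namely Bpifa1, Cyp2f4, Sec14l3 and Cyp4b1, where 28.8% of all 14217 genes fell. The list median of -0.20 turned to 0.009 after the rescaling by hybridisation controls. The call of Sec14l3 was lost in 4 of the 6 fits that left out an array and on repeated quantile normalization. That of Cyp4b1 was lost in 1 of these fits. Cyp2f4, a cytochrome P450 of club cells that was also at 9.2 in pure liver, fell by 0.43, and Bpifa1, a secreted airway defence protein, by 0.37. Of 11 endothelial genes 8 fell, with a median of -0.19 as deposited that turned to 0.03 after the rescaling. Pecam1, the adhesion molecule CD31, was at 8.17, 8.21 and 8.14 and then at 7.73, 7.77 and 7.80 (-0.40 ± 0.10, adjusted p = 0.00106). Eng and Tie1 fell by 0.30 and 0.26, Tie1 turning to 0.064 after the rescaling, while Cldn5, the endothelial claudin of lung and of the blood-brain barrier, gave -0.03.

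Of 14 matrix and smooth muscle genes 4 fell, namely Des, Myh11, Col4a1 and Col1a2. That is close to the share of all 14217 genes that fell, 28.8%. Des, the muscle intermediate filament desmin, fell by 0.51 ± 0.14, while Myh11 and Col4a1, each down by 0.26, turned to 0.014 and 0.020 after the rescaling. Of 13 genes of white blood cells and macrophages 7 fell, with a median of -0.24 that turned to 0.03 after the rescaling. Cd79b of B cells fell by 0.47, Mrc1 of macrophages by 0.36, Cd3e of T cells by 0.35 and Fcer1g, an Fc receptor subunit, by 0.17, the last turning to 0.029. The calls of Fcer1g and Cd3e were lost in 4 and in 2 of the 6 fits that left out an array. The dim hybridisation controls and the liver share moved the same way as these calls, and their part in them was not tested further.

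Heart-type muscle genes, which rat lung RNA can carry from the muscle sleeve of pulmonary veins, gave 1 increase and 3 decreases among 9 measured. Among all 14217 genes 19.1% rose and 28.8% fell, so these counts are near those shares. Myh6, the atrial myosin heavy chain, fell by 0.44, Mybpc3 by 0.33 and Myl7 by 0.32, the last turning to 0.0032 after the rescaling. Mybpc3 came to -0.22 without replicate 2 of the 20% brain mixture (adjusted p = 0.249). When 1 array was left out the call was lost in 6 of 6 fits for Myl7, in 5 for Mybpc3 and in 3 for Myh6. Ryr2, a calcium release channel of heart and brain, rose 2.58-fold, from 6.35, 6.46 and 6.30 to 7.72, 7.81 and 7.68. Ryr2 was at 9.4 in pure brain and 5.7 in pure lung, and a difference of 1.49 was predicted.

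Among the lists with no home tissue, 1 of 6 reference genes rose, namely Ywhaz, a 14-3-3 signalling adaptor at 12.1 in pure brain and 9.5 in pure liver (0.55 ± 0.04, with 0.52 predicted). B2m, of MHC class I, gave 0.01 with 1 other probe set called in the opposite direction, Pgk1, a glycolytic enzyme, 0.11 and the ribosomal protein gene Rps6 0.01, none passing. Under median centring B2m and Rps6 were called lower at -0.088. Of 6 ribosomal protein genes 1 rose, Rpl3 by 0.11, where 1 other probe set was called in the opposite direction and the call was lost in 5 of the 6 fits that left out an array. Of 13 respiratory chain genes Cox6a1 and Cox4i1 rose by 0.16 and 0.13 and Sdhd fell by 0.15. Under median centring Cox6a1, Cox4i1 and Rpl3 gave 0.061, 0.030 and 0.010 without passing, and on repeated quantile normalization Sdhd gave -0.078 without passing.

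Of 4 red blood cell genes 3 fell, Ahsp, Alas2 and Slc4a1, by 0.47, 0.27 and 0.26, the latter pair turning to 0.052 and 0.066 after the rescaling, and the globin gene Hbb gave 0.05. Of 11 immediate early genes, which neurons switch on with activity and other cells with stress or handling, 6 rose and 1 fell. Egr1 was at 7.86, 7.79 and 7.79 and then at 8.72, 8.70 and 8.70 (1.86-fold), Egr2 rose 1.87-fold and Nr4a1 1.74-fold. Egr1 was at 10.0 in pure brain, 7.1 in pure liver and 7.6 in pure lung. Jun and Dusp1, at similar pure levels in liver and brain, gave -0.07 and -0.04.

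Among probe sets enriched in no single tissue, 1331 were at least 2-fold lower in liver than in both other tissues, and 885 of them rose, with a median of 0.28 where 0.29 was predicted. A further 1050 were lower in brain than in both others, and 917 fell, with a median of -0.34 where -0.17 was predicted. The 361 that were lower in lung gave 84 increases and 27 decreases. This grouping was added after the values had been seen.

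The prediction used throughout is the share-weighted sum of the 3 pure means on the linear scale. Across the 31042 probe sets the observed and the predicted difference had a Pearson correlation of 0.943, as a description over probe sets that share the same arrays. The calls followed its size: of 1420 probe sets predicted to differ by 0.5 to 1, 1414 rose, and all of the 638 predicted at 1 to 1.5 and the 355 above that rose. Of 3284 predicted at 0.1 to 0.25, 1206 rose. The 354 brain-enriched probe sets that did not pass had a median prediction of 0.28 and a median level of 5.79 in pure brain, and 345 of them were above zero.

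**Figure D3:**
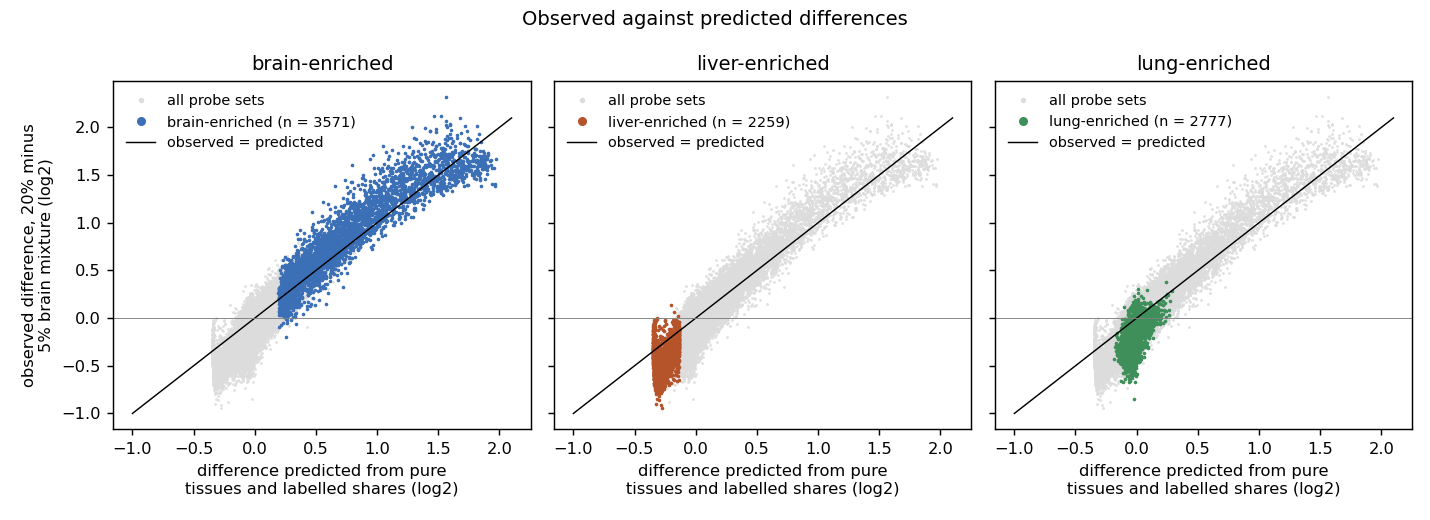
Observed difference between the mixtures (log2, vertical axis) against the difference predicted from the pure tissues and the labelled shares (log2, horizontal axis), with each point a probe set: all in grey, the enriched class of each panel in colour, and the line of equality in black. Brain-enriched points rise along the line and flatten at its upper end, and most liver- and lung-enriched points lie under it, with medians of -0.39 and -0.17 as deposited (0.12 for lung after rescaling by hybridisation controls).

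Single probe sets that left the prediction were few. By limma with an error carried over from the pure means, 647 probe sets (2.08%) departed at an adjusted p under 0.05 and by at least 0.32 (log2), 162 above (0.522%) and 485 below (1.56%). Of the 162, 154 were brain-enriched. Of the 485, 119 were liver-enriched, 141 lung-enriched, 20 brain-enriched and 205 enriched in no tissue. Departures under the cut were widespread as deposited. The median departure was -0.15 for liver-enriched, -0.16 for lung-enriched and 0.08 for brain-enriched probe sets. These counts rested on the number of arrays: they came to 388, 510 and 413 without replicate 1, 2 or 3 of the 5% brain mixture and to 388, 306 and 303 without those of the 20% brain mixture. They also rested on the scaling, with 2389 departures after median centring and 0 after the rescaling by hybridisation controls. That rescaling widened the errors of single genes, so its count of 0 does not show that the prediction held.

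The largest departures above the prediction were those of 5 brain-enriched genes. Vstm2a, an immunoglobulin-domain protein, rose by 1.81 where 1.05 was predicted (departure 0.76 ± 0.13, adjusted p = 0.00179). Rtn4r, the Nogo receptor of axons, departed by 0.65, Nxph1 by 0.65, the protocadherin gene Pcdhb17 by 0.64 and the dopamine receptor gene Drd1 by 0.64. The largest departures below were LOC100909739 by -0.67, Olr1, a scavenger receptor for oxidised LDL, by -0.66, Fam151a by -0.65, Sult2a2 by -0.63 and the chemokine receptor gene Ccr6 by -0.61. Olr1 and Ccr6 were lung-enriched and, with Tead3, a TEAD transcription factor of the Hippo pathway, had the largest decreases of that class, each at -0.67. The largest increases of the lung-enriched class were Myb by 0.30, Gmnc by 0.26 and Zfp617 by 0.19, of which Gmnc is a regulator of multiciliated cells. Myb came to 0.14 without replicate 2 of the 5% brain mixture (adjusted p = 0.392), below Gmnc, and to 0.21 under median centring (0.148). Zfp617 came to 0.092 under median centring (0.28), and both lost their calls with the variance trend and with the 6 arrays alone.

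Mbp and Snap25, among the brightest brain genes, lay below the prediction. Of the 51 brain-enriched probe sets over 12 in pure brain, 10 were called below it. Their median difference was 1.31 where 1.32 was predicted. Mbp was predicted to differ by 1.96 and departed by -0.57 ± 0.06 (adjusted p = 5.08e-07), and Snap25 by -0.56. Both were above the share-weighted sum in each mixture: Mbp was at 11.29 where the sum gave 9.44, and at 12.68 where it gave 11.40. Snap25 was at 10.79 against 9.06 and at 12.20 against 11.02. Nxph1, by contrast, was at its sum in the 5% brain mixture, 4.22 against 4.21, and above it in the 20% brain mixture, 6.34 against 5.68.

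**Figure D4:**
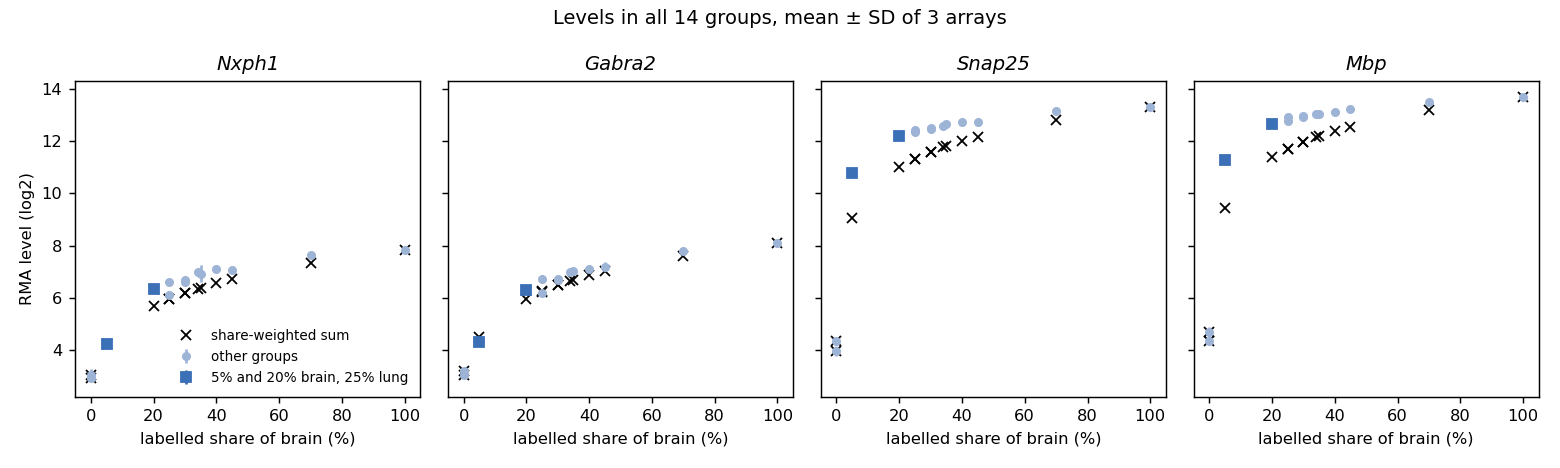
Level (log2, vertical axis) of 4 brain-enriched genes against the labelled share of brain (percent, horizontal axis) in all 14 groups: circles and squares are means of 3 arrays with SD bars, squares marking the 5% and 20% brain mixtures at 25% lung, and crosses the share-weighted sum of the pure means. Snap25 and Mbp stand above the crosses in both mixtures, 11.29 against 9.44 for Mbp at 5% brain, while Nxph1 is on the cross at 5% brain and above it at 20%.

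The size of the difference varied with the brightness of a probe set in its home tissue. Brightness differs between probe sets by their chemistry as well as by transcript amount, so this orders probe sets and not transcripts. Brain-enriched probe sets under 6 in pure brain had a median difference of 0.32, those from 6 to 8 of 0.68, from 8 to 10 of 1.04, from 10 to 12 of 1.30, and over 12 of 1.31. The share that rose went from 52.0% under 6 to 99.8% at 8 to 10 and 100% above. Liver-enriched probe sets had medians of -0.29, -0.40, -0.44, -0.39 and -0.17 over the same steps, and 98.6% fell at 8 to 10 against 57.3% over 12. The 117 over 12, which include those of Alb, Gc and Apoc3, had a median departure of 0.14 above the prediction, whereas the others lay below it. Lung-enriched probe sets had medians of -0.16, -0.20, -0.18, -0.14 and -0.05 as deposited, and of the 42 over 12 only 2 fell.

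**Figure D5:**
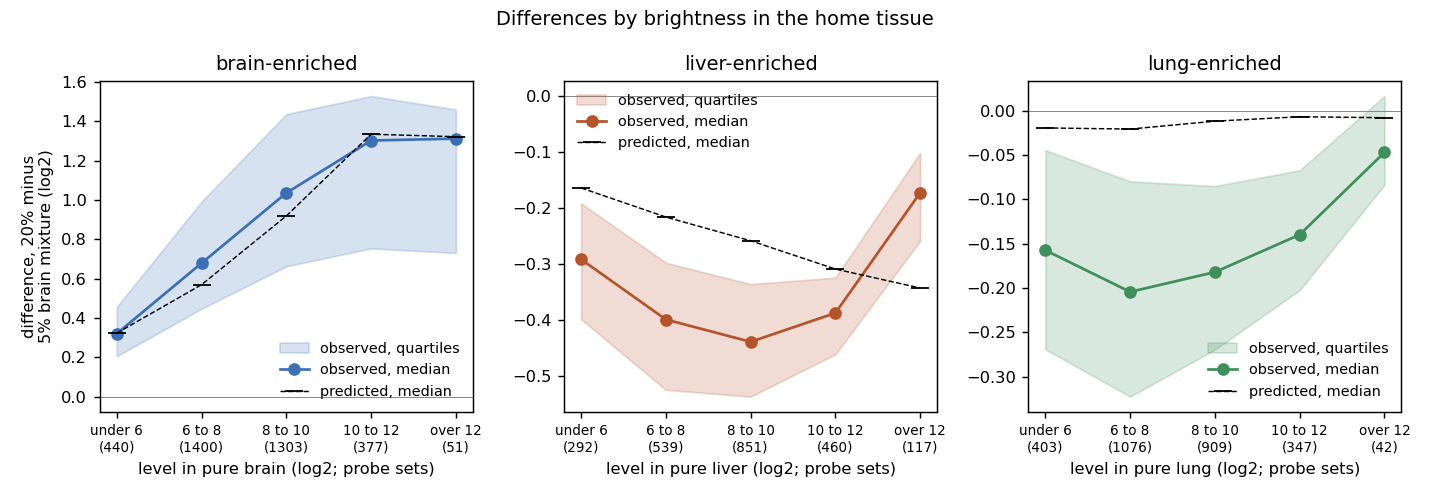
Median difference between the mixtures (log2, vertical axis) of brain-, liver- and lung-enriched probe sets in steps of their level in the pure home tissue (log2, horizontal axis, with the number of probe sets): coloured dots are observed medians, shading their quartiles, and black dashes the predicted medians. The observed liver median goes from -0.44 at 8 to 10 to -0.17 over 12 while the prediction grows more negative, and the lung medians go from -0.20 to -0.05 as deposited, the lung class as a whole turning to 0.12 after rescaling by hybridisation controls.

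Each array's tissue shares were then estimated from the top 100 probe sets that mark liver, brain or lung. The estimated brain share was 7.54% to 8.0% in the 5% brain mixture and 25.4% to 25.6% in the 20% brain mixture. Its mean rose from 7.83% ± 0.25 to 25.5% ± 0.09 (SD, n = 3), by 17.7 points where 15 were labelled. The estimated liver share was 64.0% ± 0.24 and 50.4% ± 0.37, a difference of -13.6 points where -15 were labelled. The estimated lung share was 28.2% ± 0.18 and 24.1% ± 0.35, a difference of -4.06 points where none was labelled. The groups did not overlap for any tissue (exact permutation p = 0.1 each, two-sided, the smallest possible). On simulated mixtures the estimate erred by 0.184, 0.0874 and 0.119 points for liver, brain and lung. Apart from some planted shifts, these were built as the share-weighted sum that the estimate itself assumes. Real arrays can leave that sum, so these errors are not the accuracy of the estimates above.

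The exchange at 5% lung moved 10 points between the same tissues and used no array of the exchange at 25% lung. There the labelled brain share rose 1.4-fold and the liver share fell to 0.857 of its value. It gave 5086 calls (16.4%), 1492 higher (4.81%) and 3594 lower (11.6%). The brain-enriched median was 0.17 there against 0.78 at 25% lung, where 0.29 and 0.64 were predicted, so the observed median lay below the prediction in one exchange and above it in the other, a contrast that was not tested. The liver-enriched median was -0.27 against -0.39, with -0.16 and -0.25 predicted, and the lung-enriched median -0.08 against -0.17.

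The difference between both exchanges was tested in the same fit, and 5161 probe sets passed (16.6%), 3356 more positive at 25% lung (10.8%) and 1805 more negative (5.81%). The test asks whether the log2 changes were equal. By the labels the brain share rose 4-fold at 25% lung and 1.4-fold at 5% lung, so larger brain changes at 25% lung are part of the design. Of the brain-enriched probe sets 2546 were more positive at 25% lung and 1 more negative. Of the liver-enriched ones 1 was more positive and 140 were more negative, and of the lung-enriched ones 8 and 143. Nxph1 rose by 2.12 at 25% lung and by 0.31 at 5% lung (adjusted p of the difference 4.14e-11), from 6.60 ± 0.09 at 25% brain to 6.92 ± 0.32 at 35% brain. Mbp rose by 1.39 and by 0.25 (6.55e-13) and Gabra2 by 1.99 and by 0.32 (6.78e-13). Among liver genes the changes were closer: Sult1c3 fell by 0.73 and by 0.59 (adjusted p of the difference 0.39), and Cyp3a18 by 0.76 and by 0.54 (0.383). Sult2a2 fell by 0.91 at 25% lung and gave -0.11 without passing at 5% lung (0.00199).

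Of the 137 genes named by the rule given with the methods, 120 had arrays of the 2 mixtures that did not overlap (87.6%), against 15998 of all 31042 probe sets (51.5%). Since many were named for the size of their difference, that share is a description.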

How the data were processed

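Total RNA was extracted, labelled from 1 μg and hybridised to Affymetrix rat arrays, and RMA normalization was done by the authors, per the labels and the series' design text. No source used here gives RMA's version. What they deposited is 1 log2 level for each probe set and array, from 2.12 to 14.43; RMA draws the arrays' distributions together, which can scale mixtures unevenly. Of 31099 probe sets 57 controls were left out. The platform annotation gave 1 gene for 20826 probe sets, several for 436 and none listed for 9780; updating through the GRCr8 gene table altered 0 symbols and left 68 unmatched. A gene's level is that of its probe set with the highest mean over all arrays. Replicates of either mixture had equal values at 1 to 10 probe sets, so each array counted once. No scan dates or batches were used here.

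A single fit in limma 3.58.1 (R 4.3.3) took all 42 arrays and 14 group means with 28 residual and 4.56 prior degrees of freedom, with Benjamini-Hochberg adjustment over 31042 probe sets. Sharing 1 spread over all groups steadies the error of 3 arrays. It also gives a wide error to a gene that is tight in the mixtures but spreads in other groups. Departures took their error by the delta method. Shares came from non-negative least squares on linear values, each probe set divided by its highest pure mean, and were rescaled to sum to 100% on each array. The members and gene lists were chosen with earlier results of these data known. Named were the 10 largest changes each way, the 3 members of each list brightest in their home tissue (elsewhere by mean level), up to 3 called against their home tissue or in lung or other lists, 5 departures and 3 lung-enriched changes each way by size; other genes in the text were picked after their values were seen. Alternatives covered scaling, arrays in the fit, variance trend, dim probe sets, 1 probe set per gene, fold limits, background, log-scale mixing, the share estimate and each array left out. On simulated arrays of 31042 probe sets, 54% of 1.25-fold, 94% of 1.5-fold and 100% of 2-fold and 4-fold changes between the mixtures were recovered with 12 false calls. Departures of these sizes were recovered at 18%, 96%, 100% and 100%, with 7 false calls. Far fewer changes were planted than the 12558 called between the mixtures. The adjustment was therefore stricter there, and 54% is not the sensitivity of the test in these data. Figures used matplotlib 3.10.9 under Python 3.11.15.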

Additional observations from a re-analysis of the deposited data

Results flagged for a closer look

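The change between mixtures differed between the exchange at 25% lung (15 points) and that at 5% lung (10 points) for 5161 probe sets by limma's test of the difference, adjusted p under 0.05. Of these, 2547 were brain-enriched, 141 liver-enriched and 151 lung-enriched. The labelled share ratios of the exchanges differ, 4-fold against 1.4-fold for brain, so a difference in size is part of the design. Groups of 3 arrays were not searched for single outlying arrays.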

How the results depend on the processing

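No paired analysis was possible because the labels carry no replicate numbers. Depth does not apply to arrays; 83.6% and 79.1% of probe sets read below the dimmest hybridisation control in the 5% and 20% brain mixture, where the curve through the controls holds its bioB shift. Of the 137 named genes, 97 kept direction and side of the threshold in all of the 10 other fits run for single genes (6 that leave out an array, 2 scalings, the variance trend and the 6 arrays alone), and 76 did under that curve. Fold limits and filters on probe sets were not applied to single genes.

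Median centring gave 13098 probe sets lower, medians of 0.73, -0.43 and -0.27 for brain-, liver- and lung-enriched probe sets (classes redrawn), 62.4% of lung-enriched probe sets lower, 2389 departures (2205 below), 8275 changes differing from the exchange at 5% lung, and estimated differences of 19.0 points of brain and -5.07 of lung; B2m and Rps6 reversed, both to -0.088. Repeated quantile normalization gave medians of 0.75 (brain) and -0.20 (lung), 1274 departures (1101 below), and differences of -12.4 points of liver and 16.4 of brain. The curve through the hybridisation controls gave 3718 calls with 0 lower, 0% of liver- and 0% of lung-enriched probe sets lower, medians of 0.24 (all), 1.01 (brain), -0.23 (liver) and 0.12 (lung), 0 departures above or below, 2693 changes differing between exchanges, and differences of -17.1, 19.4 and -2.31 points of liver, brain and lung. Reversed there were Zic2 (0.047), Napsa (0.010), Abca3 (0.077), Tie1 (0.064), Myh11 (0.014), Col4a1 (0.020), Fcer1g (0.029), Myl7 (0.0032), Alas2 (0.052) and Slc4a1 (0.066). Errors of single genes were wider under the curve, and Myb at 0.63 did not pass (limma adjusted p = 0.0724).

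The brighter part of the probe sets gave a brain median of 0.92 and 302 departures below. With 1 probe set per gene, and so fewer features, 7168 were called (2810 higher, 4358 lower), 92 departed above, 2571 differed between exchanges, and the brain and lung medians were 0.81 and -0.19. At 1.5-fold 2701 were called, 2392 higher and 309 lower. Enrichment of 4-fold gave medians of 1.22, -0.47 and -0.21. Departures below came to 285 with the 5th percentile subtracted; mixing on the log2 scale gave 2750 departures (2249 above), and a 1.5-fold limit 35 (23 above, 12 below). Estimated differences were 17.3 points of brain and -3.41 of lung from 50 probe sets per tissue, -14.3 of liver and 18.5 of brain from 200, and -11.9, 14.6 and -2.69 for liver, brain and lung without division by the highest pure mean.

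Leaving out 1 array at a time gave 303 to 510 departures (95 to 165 above, 200 to 345 below), 10861 to 11099 calls, and 4391 to 4870 changes differing between exchanges. Of the named genes, 19 lost their call when 1 array was left out. Fgb, Napsa and Myl7 lost it whichever array that was. Without replicate 1 of the 5% brain mixture it was also lost by Cyp4b1, Fga, Mybpc3, Myh6, Rpl3, Sec14l3, Slc4a1 and Zic2. Without replicate 2 of the 5% brain mixture it was also lost by Abca3, Ager, Cd3e, Col4a1, Fcer1g, Fga, Myb, Mybpc3, Myh6, Rpl3, Sec14l3 and Zic2. Without replicate 3 of the 5% brain mixture it was also lost by Fcer1g, Kdr, Mybpc3, Rpl3, Zfp617 and Zic2. Without replicate 1 of the 20% brain mixture it was also lost by Fcer1g, Fga, Kdr, Mybpc3, Rpl3, Sec14l3, Zfp617 and Zic2. Without replicate 2 of the 20% brain mixture it was also lost by Cd3e, Fcer1g, Kdr, Myb, Mybpc3, Rpl3, Slc4a1 and Zfp617. Without replicate 3 of the 20% brain mixture it was also lost by Abca3, Ager, Fga, Myb, Myh6, Sec14l3 and Zic2.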
